A study of Danio rerio with 4 samples.

Results

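Red blood cell genes were followed in hearts of zebrafish embryos treated with an inhibitor of fibroblast growth factor (FGF) receptors. The group holds 8 genes of heme synthesis, the red cell membrane and erythroid control, namely alas2, urod, tspo, gata1a, slc4a1a, sptb, epb41b and cahz. They were chosen by name, with earlier results of these data known. Each was matched through its updated gene symbol to 1 probe set, so 8 probe sets of 15502 and 8 of 8793 named genes were described. In the treated group, wild-type embryos received 10 μM SU5402, an inhibitor of the FGF receptor tyrosine kinase. In the control group, wild-type siblings received 1% DMSO, the solvent. Hearts with adjoining tissue were collected from both groups at 48 hours post fertilization by a syringe method, and each group had 2 replicates on 1 Affymetrix Zebrafish array each. The start and length of the treatment and the number of embryos behind each array are not given in the labels, nor is it said that the replicates came from separate clutches, so the spread behind each p-value is that of these 4 arrays and may be technical.

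Red cells of the zebrafish embryo fill with haemoglobin, whose heme is built by a chain of enzymes that starts and ends in the mitochondrion. The transcription factor Gata1 switches on this programme, and a skeleton of spectrin and protein 4.1, tied to the anion exchanger band 3, gives the cell its shape. These genes are well known in zebrafish because blood mutants were traced to them: sauternes to alas2, yquem to urod, vlad tepes to gata1a, retsina to slc4a1a, riesling to sptb, and merlot and chablis to epb41b. Blood flows through the heart at the stage sampled, so transcripts of circulating cells can be present in an extract of the heart region. In such bulk samples, fewer red cells and less RNA per red cell cannot be told apart.

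No erythroid gene of the 8 passed the test between SU5402 and DMSO hearts. Levels are deposited intensities on a linear scale, and differences are SU5402 minus DMSO in log2(intensity + 16), a scale that shrinks differences of dim genes. In limma with Benjamini-Hochberg adjustment over all probe sets, 0 of the 8 had an adjusted p under 0.05 (lowest 0.313), against 0% of all probe sets (lowest adjusted p 0.255). At an unadjusted p under 0.05 the count was 1 of 8, or 12.5%, beside 13% of all probe sets; the 1 gene was higher after SU5402, as were 6.74% of all probe sets, while 6.21% were lower. That gene, sptb, read below background on every array, and of the 5 genes above background on any array the count was 0. The SU5402 and DMSO arrays did not overlap for 2 of the 8, or 25%, beside 44% of all probe sets, with 1 gene higher (22.2% of all probe sets) and 1 lower (21.8%). The differences were positive for 4 genes and negative for 4, from -1.06 to 1.3, with a median of 0.04, and the median of all probe sets was -0.01. The upper end is sptb, and 3 of the 8 genes lay below background on every array. This split, range and median thus rest in part on readings at background. With values raised to the background level, the median over the 5 other genes was -0.06. An exact permutation test of 2 against 2 arrays cannot give a p below 0.333.

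The 8 genes differed in how well the arrays measured them. The background was set at an intensity of 136, the 95th percentile of 17 Tag probe sets, controls without a zebrafish target. Above it on all 4 arrays were 3 genes, alas2, slc4a1a and cahz. Below it on all 4 were gata1a, sptb and epb41b. Their fitted differences are given to account for every gene, but they compare readings at background and are not measured fold changes of the transcripts. The remaining 2, urod and tspo, crossed it, each with 1 SU5402 array below.

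**Figure D1:**
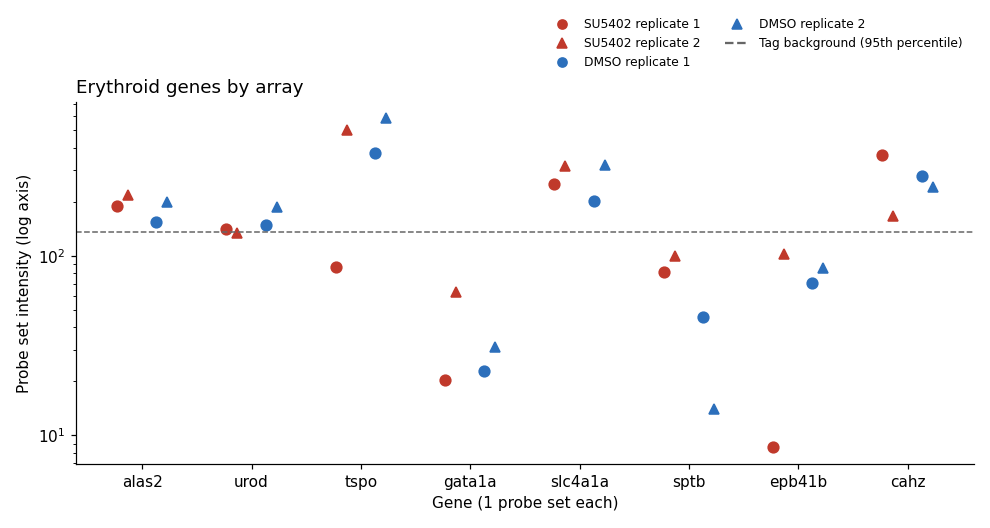
Intensity of the 8 erythroid genes (log axis) on each array, with SU5402 in red, DMSO in blue, circles for replicate 1, triangles for replicate 2 and a dashed line at the Tag background of 136. The points of alas2 and slc4a1a lie close together above the line, tspo and epb41b each have 1 SU5402 array far below the other 3, and gata1a, sptb and epb41b stay under the line.

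Of the heme enzymes, alas2 encodes the erythroid form of 5-aminolevulinate synthase, which carries out the first step of the pathway. Its intensity was 189.8 and 217 in the SU5402 arrays, against 154 and 200.0 in the DMSO arrays. The groups overlapped, with the second DMSO array above the first SU5402 array. The difference was 0.20 (SE 0.32, 95% interval -0.58 to 0.97), with an adjusted p of 0.853 in limma. It was 0.02 without DMSO replicate 1 and 0.37 without DMSO replicate 2.

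The urod gene encodes uroporphyrinogen decarboxylase, a later enzyme of the same pathway that acts in the cytosol. Its probe set gave 141 and 133 in the SU5402 arrays, against 149 and 186 in the DMSO arrays. Both SU5402 arrays lay below both DMSO arrays, and all 4 stood near the background. On the log2 scale the means were 7.26 ± 0.05 in SU5402 hearts and 7.51 ± 0.21 in DMSO hearts (SD, n = 2 each). The difference of -0.25 (SE 0.31, 95% interval -1.01 to 0.51) had an adjusted p of 0.794 in limma. It was -0.40 without DMSO replicate 1 and -0.11 without DMSO replicate 2.

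The tspo gene encodes a cholesterol- and porphyrin-binding protein of the outer mitochondrial membrane, made in many tissues as well as in blood. It read 86.7 and 501 in the SU5402 arrays, against 373 and 581 in the DMSO arrays. SU5402 replicate 1 alone was low and below background, while SU5402 replicate 2 lay between the DMSO arrays. The fitted difference was the lowest of the 8 at -1.06 (SE 0.76, 95% interval -2.94 to 0.81, adjusted p = 0.626 in limma). It rested on that array: without SU5402 replicate 1 the difference was 0.10, and without SU5402 replicate 2 it was -2.23.

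Erythroid control is represented by gata1a, the transcription factor that drives red cell differentiation. Its intensities of 20.5 and 62.6 in the SU5402 arrays, against 22.8 and 31.1 in the DMSO arrays, were all below background. The SU5402 arrays lay on either side of the DMSO pair. The difference was 0.32 (SE 0.45, 95% interval -0.77 to 1.42, adjusted p = 0.822 in limma), and it was -0.23 without SU5402 replicate 2 and 0.88 without SU5402 replicate 1.

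Of the membrane genes, slc4a1a encodes band 3, the chloride and bicarbonate exchanger that anchors the membrane skeleton. It stood at 249 and 317 in the SU5402 arrays, against 202 and 319.5 in the DMSO arrays. In each group replicate 2 was the higher array, and the SU5402 values lay within the range of the DMSO values. The difference was 0.13 (SE 0.36, 95% interval -0.75 to 1.02), with an adjusted p of 0.915 in limma. It was -0.18 without DMSO replicate 1 and -0.03 without SU5402 replicate 2.

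The sptb gene encodes erythrocyte beta-spectrin, which pairs with alpha-spectrin to form the membrane skeleton. Its values were 80.9 and 99.9 in the SU5402 arrays, against 45.6 and 14.1 in the DMSO arrays. Both SU5402 arrays lay above both DMSO arrays, and all 4 lay below background. The means were 6.73 ± 0.18 in SU5402 hearts and 5.43 ± 0.73 in DMSO hearts (log2 scale, SD, n = 2 each). The difference of 1.3 (SE 0.43, 95% interval 0.25 to 2.35) compares readings at background, and it is the whole of the count of 1 at the unadjusted threshold (unadjusted p = 0.0235 and adjusted p = 0.313 in limma). Without DMSO replicate 2, the dimmest array, the difference was 0.78, and without DMSO replicate 1 it was 1.82. Without SU5402 replicate 2 it was 1.17, and without SU5402 replicate 1 it was 1.43. With values raised to the background level, sptb had no difference to measure.

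The epb41b gene encodes protein 4.1, which joins spectrin to actin and to the membrane. It gave 8.58 and 103 in the SU5402 arrays, against 70.7 and 85.9 in the DMSO arrays. As for tspo, SU5402 replicate 1 was the low array, and SU5402 replicate 2 was above both DMSO arrays. The difference of -0.80 (SE 0.73, 95% interval -2.59 to 0.99) had an adjusted p of 0.717 in limma. Without SU5402 replicate 1 it was 0.34, and without SU5402 replicate 2 it was -1.94.

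The cahz gene encodes a carbonic anhydrase of red cells and is widely used as a blood marker in zebrafish embryos. Its intensity was 363 and 166 in the SU5402 arrays, against 278 and 240.2 in the DMSO arrays. The SU5402 arrays were the highest and the lowest of the 4. The difference was -0.06 (SE 0.43, 95% interval -1.13 to 1.00, adjusted p = 0.971 in limma), -0.59 without SU5402 replicate 1, and 0.46 without SU5402 replicate 2. It was 0.04 without DMSO replicate 1.

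**Figure D2:**
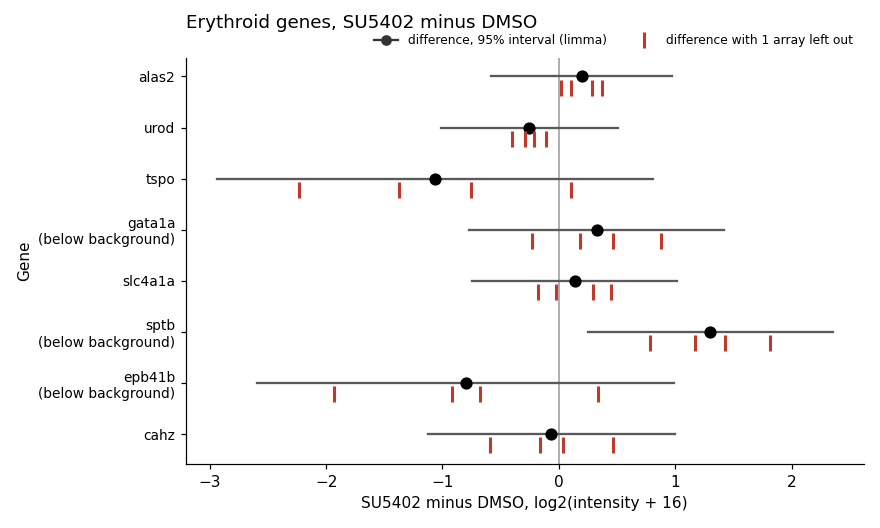
Difference between SU5402 and DMSO arrays for each of the 8 genes on the log2(intensity + 16) scale, with points for the limma estimate, lines for its 95% interval and red ticks for the estimate with each array left out. All intervals other than that of sptb (0.25 to 2.35) include 0, the readings of sptb, gata1a and epb41b all lie below background, and the ticks of tspo run from -2.23 to 0.10.

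The intervals show how uncertain each difference was, gene by gene and with no adjustment for the number of probe sets. The adjusted threshold could miss differences of the sizes that these intervals span. That of sptb, 0.25 to 2.35, compares readings at background and is no example of a missed difference (adjusted p = 0.313 in limma). The intervals reached 0.76 to 1.87 log2 units on either side of the estimate, so the absence of a call does not show that the genes stayed level. The narrowest belonged to urod and alas2, and the widest to tspo and epb41b. The median gap between replicates of the 8 genes was 0.69 in SU5402 hearts and 0.32 in DMSO hearts, beside 0.45 and 0.32 over all probe sets. The gaps of tspo (2.33) and epb41b (2.27) between the SU5402 arrays were matched or exceeded by 1.28% and 1.41% of all probe sets. For sptb the wide gap was in DMSO hearts instead, at 1.03, matched or exceeded by 7.5% of all probe sets. Both epb41b and sptb lay below background on every array, so their gaps are between readings at background. The low array of tspo also lay below it.

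Likeness of pattern was measured over the 4 arrays as the Euclidean distance between log2 profiles centred on their own means, and it is a description with no test and no allowance for replicate noise. The 5 nearest of the 8793 genes to alas2 were ap1g2, pde6ha, sstr5, schip1 and hbae3, at distances of 0.04 to 0.07. The globin gene hbae3 was thus the fifth nearest, and slc4a1a ranked 207 at 0.23. The other 6 ranked from 1521 for urod (0.48) to 8511 for tspo (1.98). The 5 nearest to gata1a were fabp6, map7b, ubb, gmds and taok1b (0.08 to 0.14), with slc4a1a and alas2 at ranks 738 and 881. The profiles of gata1a, sptb and epb41b lie below background throughout, so their distances and ranks compare readings at background.

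Haemoglobin genes, which fill the red cell with its oxygen carrier, included probe sets far above background. Of 16 listed, 5 had a probe set of their own, and 0 of the 5 passed in limma (lowest adjusted p 0.512). The embryonic alpha globin gene hbae3 stood at 11503 and 13028 in the SU5402 arrays, against 10009 and 12619 in the DMSO arrays. From low to high, its 4 arrays fell in the same order as those of alas2, and the groups overlapped. Its difference was 0.12 (SE 0.32, 95% interval -0.65 to 0.90), and a second probe set gave 0.15. Without DMSO replicate 1 it was -0.04.

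The embryonic beta globin gene hbbe2 read 403 and 823 in the SU5402 arrays, against 357 and 453 in the DMSO arrays, a difference of 0.50 (SE 0.43). That difference was 1.0 without SU5402 replicate 1 and 0.0042 without SU5402 replicate 2. Another embryonic beta globin gene, hbbe3, read 946 and 655 in the SU5402 arrays, against 1016 and 665 in the DMSO arrays, a difference of -0.06 (SE 0.38) that was 0.20 without SU5402 replicate 2 and 0.24 without DMSO replicate 1. Both overlapped between the groups. The adult genes hbaa1 and hbba2 lay below background on every array, at 6.20 to 108 in SU5402 hearts and 5.64 to 34.9 in DMSO hearts.

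A further 4 probe sets were shared by several haemoglobin genes and cannot be given to any one of them. The probe set shared by the 3 embryonic hbbe1 genes stood at 11233 and 11401 in the SU5402 arrays, against 9146 and 10639 in the DMSO arrays. These groups did not overlap, and the difference was 0.20 (SE 0.30, adjusted p = 0.842 in limma). The first of the pair shared by the hbae1 genes stood at 975 and 892 in the SU5402 arrays, against 889 and 1010 in the DMSO arrays, a difference of -0.02 (SE 0.30). The second stood near background with a difference of -0.13, and a probe set shared by adult beta globins lay below it with a difference of -0.41. Both groups thus gave embryonic globin signal far above background, with adult globin probe sets below it.

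**Figure D3:**
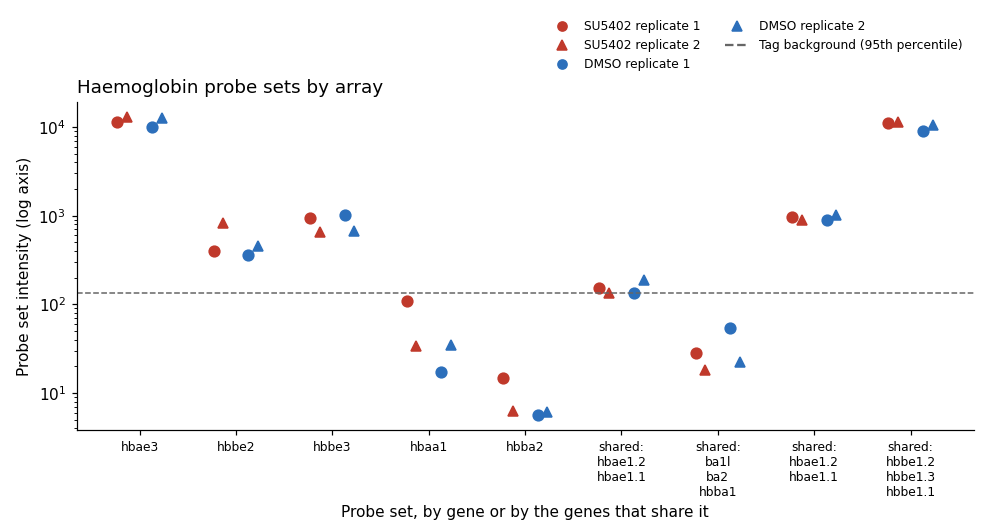
Intensity of the haemoglobin probe sets (log axis) on each array, with SU5402 in red, DMSO in blue, circles for replicate 1, triangles for replicate 2 and a dashed line at the Tag background of 136. The hbae3 probe set and the one shared by the hbbe1 genes lie between 9146 and 13028 on all arrays, and those of adult globins lie below the line.

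Other genes of the same functions were described from 6 lists. Without the 8 genes they held 54 measured genes, and 0 of them had an adjusted p under 0.05 in limma (lowest 0.312). At an unadjusted p under 0.05 the count was 3 of 54, or 5.56%, beside 13% of all probe sets, and the groups did not overlap for 22, or 40.7%, beside 44%. The differences were positive for 31 and negative for 23, with a median of 0.06 beside -0.01 over all probe sets. Counting the 8 genes, 2 of 12 heme, 2 of 5 globin and 4 of 10 membrane genes lay below background on every array. So did 9 of 16 regulators, 2 of 9 iron and 2 of 10 enzyme genes. The counts of direction and the medians of these lists thus rest in part on readings at background.

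In the heme list, 2 of 9 further genes were higher and 7 lower, with a median of -0.11. Of the 2 higher, clpxa was at 0.22, while its 3 other probe sets ran from -0.55 to -0.03. The mitochondrial carrier gene slc25a38b, whose family supplies glycine for heme synthesis, read 748 and 642 in the SU5402 arrays, against 1262 and 1152 in the DMSO arrays. The groups did not overlap, and its difference was -0.79 (SE 0.30, unadjusted p = 0.0425 and adjusted p = 0.367 in limma). The housekeeping synthase gene alas1 was at -0.01 (SE 0.43), moving to 0.46 when SU5402 replicate 1 was left out and -0.48 when SU5402 replicate 2 was. The next enzyme of the pathway, alad, was at -0.28 (SE 0.30), and cpox, a late enzyme, at -0.16 (SE 0.31). The groups did not overlap for either gene. The alad arrays stood near background, at 143 and 135 in SU5402, against 176 and 169 in DMSO. Without overlap, 3 of the 9 further genes were lower and 1 higher, beside 21.8% and 22.2% of all probe sets. The gene of the last enzyme, fech, was below background on all 4 arrays, and its difference is the median of -0.11 of the 9 further genes.

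In the membrane list, 4 of 7 further genes were higher and 3 lower, with a median of 0.02. That median is the difference of tmod4, which lay below background on every array. The dematin gene dmtn, whose protein bundles actin at the red cell membrane and is also made in other tissues, read 1077 and 895 in the SU5402 arrays, against 548 and 466 in the DMSO arrays. The groups did not overlap, and its difference was 0.94 (SE 0.31, unadjusted p = 0.0246 and adjusted p = 0.318 in limma).

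Among 15 further erythroid regulators, 10 were higher and 5 lower, with a median of 0.05, and 0 had an unadjusted p under 0.05. Of the 16 measured in the list, gata1a included, 9 lay below background on every array, among them the globin activator gene klf1 and the gene of the erythroid factor nfe2. Also among the 9 was cbfb, whose difference is the median of 0.05 of the 15 further genes. In the list of red cell enzymes, 4 of 9 further genes were higher and 5 lower, with a median of -0.20. The carbonic anhydrase gene ca2 read 321 and 1409 in the SU5402 arrays, against 2300.4 and 4487 in the DMSO arrays. Its difference was -2.22 (SE 0.73, unadjusted p = 0.0234 and adjusted p = 0.312 in limma), and a second probe set gave -0.85. The difference was -1.18 without SU5402 replicate 1 and -3.26 without SU5402 replicate 2. Which cells gave the ca2 signal was not tested, and cahz of the same list was at -0.06.

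Markers of other cells in the extract are set beside the erythroid values; over all probe sets, 49.2% were higher after SU5402. All 7 measured heart muscle markers were higher after SU5402 (median 2.0), with summed intensities of 44058 and 35672 in the SU5402 arrays, against 18593 and 7878 in the DMSO arrays, so heart muscle RNA was present on all 4. All 8 neuron markers were higher (median 1.00, sums of 39041 and 23208 in SU5402, against 16915 and 14952 in DMSO), and 5 of 6 endothelial markers were lower (median -0.88, sums of 689 and 681 in SU5402, against 2112 and 1689 in DMSO). Of 9 leukocyte markers 8 were lower (median -0.31, sums of 1753 and 2194 in SU5402, against 2436 and 2503 in DMSO), of 4 thrombocyte markers 2 were lower (median -0.003, sums of 507 and 1005 in SU5402, against 729 and 565 in DMSO), and of 9 skeletal muscle markers 6 were lower (median -0.44, sums of 3553 and 3434 in SU5402, against 1989 and 4667 in DMSO). Below background on all 4 arrays were 6 of the 9 leukocyte markers, 3 of the 6 endothelial, 2 of the 4 thrombocyte, 2 of the 9 skeletal muscle and 1 of the 7 heart muscle markers, so these counts of direction rest in part on readings at background. A second probe set of the endothelial gene fli1 was at 0.88, against -1.86 for the one used. The globin list, without the shared probe sets, summed to 12975 and 14546 in the SU5402 arrays, against 11405 and 13778 in the DMSO arrays. Of these sums hbae3 alone gave 11503 and 13028, against 10009 and 12619. In the skeletal muscle sums, ckma gave 2992 and 2375 in SU5402, against 1255 and 2224 in DMSO, a difference of 0.67. In the leukocyte sums, cebpa gave 1024 and 1071 in SU5402, against 1156 and 1468 in DMSO. In the thrombocyte sums, thbs1b gave 243 and 934 in SU5402, against 623 and 419 in DMSO. No marker was listed at 0, none passed the adjusted threshold, and the part of these other cells in the values of the 8 genes was not tested.

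**Figure D4:**
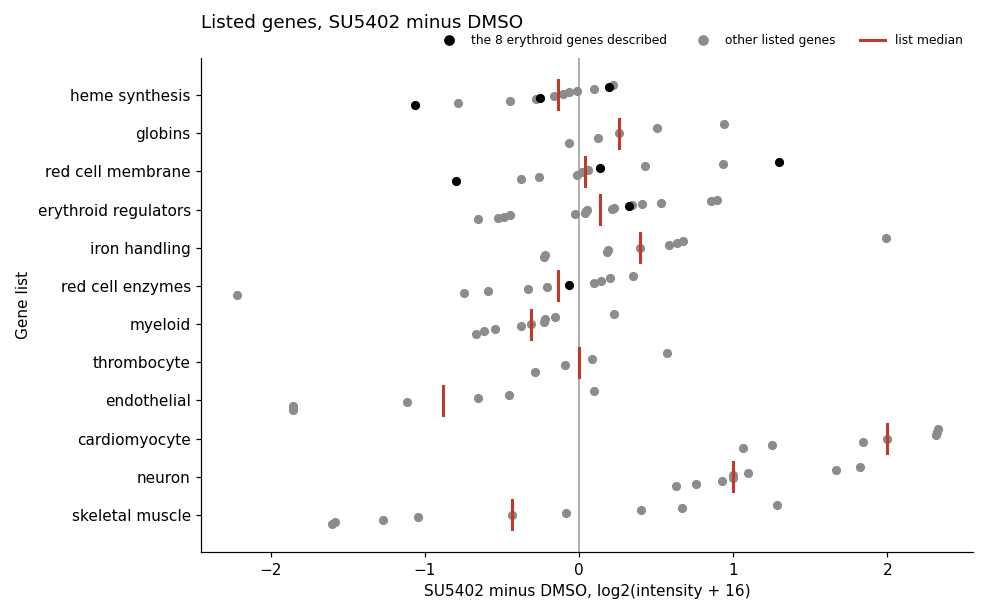
Difference between SU5402 and DMSO arrays on the log2(intensity + 16) scale for each measured gene of 6 erythroid and 6 other cell lists, with the 8 genes described in black, other genes in grey and list medians as red lines. With the 8 genes counted in, the medians of the erythroid lists lie between -0.13 and 0.40. The 0.40 is that of the iron handling list, the difference of slc25a37, which lay below background. The medians of heart muscle and neuron markers lie at 2.0 and 1.00 and that of endothelial markers at -0.88.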

How the data were processed

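The authors deposited 1 intensity per probe set and array on a linear scale. The summarising software is not given in the sources used here. The trimmed mean was 499.7 to 500.4 on all arrays, so the values had been scaled to it. Medians were 177 and 173 in SU5402 and 184 and 179 in DMSO, and 55.2% to 56.1% of probe sets lay above the Tag background. Log2 values of the SU5402 pair correlated at 0.928 and of the DMSO pair at 0.964.

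The 115 control probe sets were removed. Of the others, 10795 had 1 symbol, 135 several and 4572 none, and 10711 were matched to a current gene by Entrez identifier. Intensities were fitted as log2(value + 16) with limma 3.58.1 in R 4.3.3; treatment was the only term and tests were two-sided. A listed gene was represented by its brightest probe set. All members were described, with every globin, listed erythroid genes at an unadjusted p under 0.05 and the nearest profiles. Others were named after their values were seen, namely alas1, alad, cpox, fech, clpxa, tmod4, klf1, nfe2, cbfb, cebpa, thbs1b, ckma and the iron genes of the closing section. Members and lists were chosen with earlier results of these data known. The fit was run on simulated data only as a check of the code, and no result above rests on it. No columns of other samples were present.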

Additional observations from a re-analysis of the deposited data

How the results depend on the processing

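Each value counted here is 1 gene under 1 alternative setting. With all arrays kept, 0 of 79 values of the 8 erythroid genes had an adjusted p under 0.05 in limma. The lowest was 0.222, for sptb with a replicate block. The 14 other listed genes recomputed also gave 0 such values. The number of probe sets past the threshold, 0 in the reported fit, was 21 with a floor at the Tag background and 0 to 3 with 1 array left out (3 without SU5402 replicate 2), and 2008 had an unadjusted p under 0.05. It was 0 with a replicate block, where 2582 had an unadjusted p under 0.05. The labels do not say that replicate numbers pair the arrays, and deviations of same-numbered arrays correlated at 0.28 over probe sets. The median of the 8 genes ran from 0.03 to 0.11 over settings that kept all 8 genes and all arrays. With 1 array left out it ran from -0.12 to 0.29. Over settings that kept all 8 genes and all arrays, the shifts were smaller than the SD of 0.29 between replicates. The shifts with 1 array left out cannot be judged by that SD, because both come from the same gaps between replicates. Settings that dropped genes gave medians of a subset, -0.16 over 6 genes without the dimmest 25% and 0.04 over 4 without the dimmest 50%. The floor at the Tag background gave -0.06 over 5 genes. Of 79 values of the 8 genes with all arrays kept, 1 changed sign, cahz at 0.013 with quantile normalisation. With 1 array left out, 5 genes changed sign: tspo ran from -2.23 to 0.10, gata1a from -0.23 to 0.88, slc4a1a from -0.18 to 0.45, epb41b from -1.94 to 0.34 and cahz from -0.59 to 0.46. So did hbae3 (-0.044 to 0.29), hbbe3 (-0.36 to 0.24) and alas1 (-0.48 to 0.46), which also stood at 0.040 with median centring and 0.0011 with cyclic loess. The cause of these moves was not tested. Removing the dimmest 25% or 50% of probe sets kept 6 or 4 of the 8 genes, and 5 had a value above the Tag background.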

Other observations

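Iron handling genes supply or recycle the iron of heme and were counted among the 54 listed genes above but not described. The genes named here were chosen after their values were seen. Of 9 measured, 7 were higher after SU5402 and 2 lower, with a median of 0.40 beside -0.01 over all probe sets. Below background on every array were 2 of the 7 higher genes, slc25a37 and hpxa. The median is the difference of slc25a37, so it compares readings at background. An unadjusted p under 0.05 in limma was reached by 0. The groups did not overlap for 3 higher and 2 lower genes, beside 22.2% and 21.8% of all probe sets. The 2 lower were fth1a and slc11a2. In the SU5402 arrays fth1a read 11431 and 12452, against 14133 and 13822.5 in DMSO (difference -0.23, SE 0.30). The values of slc11a2 were 894 and 1123, against 1200 and 1140 (difference -0.22, SE 0.31). The iron exporter gene slc40a1 read 958 and 1277 in the SU5402 arrays, against 779 and 686 in the DMSO arrays, without overlap (difference 0.59, SE 0.32). The biliverdin reductase gene blvrb, which acts in the breakdown of heme, read 239.7 and 302 in the SU5402 arrays, against 158 and 168 in the DMSO arrays, also without overlap (difference 0.67, SE 0.31). The transferrin gene tfa, an iron carrier of plasma made mainly in liver, read 3446 and 447 in the SU5402 arrays, against 396 and 229.5 in the DMSO arrays (difference 1.99, SE 0.92), and SU5402 replicate 1 stood far above the other 3 arrays. Without that array the difference was 0.54, and without SU5402 replicate 2 it was 3.45. That of slc40a1 was 0.38 without SU5402 replicate 2.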
